A study of Mus musculus with 2 samples.

Results

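The microRNA miR-21a was followed through both strands of its hairpin, mmu-miR-21a-5p and mmu-miR-21a-3p (below miR-21a-5p and miR-21a-3p), in cultured mouse aortic smooth muscle cells. They were taken by name and are 2 of the 1909 mature microRNAs in the deposited tables. The series sequenced small RNA from thoracic aortic smooth muscle cells of male mice, 10 to 12 weeks old, grown in medium with fetal bovine serum. The db/db culture came from type 2 diabetic mice of the strain written BKS.Cg-m+/+Leprdb/J in the labels, which lack a working leptin receptor and become obese. The db/+ control culture came from mice labelled Lepr+/-, which carry 1 working copy of the receptor gene, and the number of mice behind each culture is not stated in the labels. There was 1 library per group, so no difference between genotypes could be tested and every difference below is between these 2 libraries. The intervals cover the counting error of reads only, and not the variation from mouse to mouse or from culture to culture. Since reads are PCR copies without molecular identifiers, the intervals may be too narrow even for the molecules sampled.

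MicroRNAs are short RNAs that guide Argonaute proteins to messenger RNAs, mostly through pairing of the seed, bases 2 to 8 of the microRNA. A hairpin gives a 5p and a 3p strand, of which usually only 1, the guide, is kept in quantity while the other, the passenger, is degraded. The 5p guide of miR-21 is known for repressing Pdcd4 and Spry1, brakes on growth and survival signalling, and rises in the neointima of injured rat arteries. In human vascular smooth muscle cells, SMAD proteins activated by TGF-beta and BMP speed the processing of the miR-21 transcript by Drosha. The 3p strand is known in rat heart as a cargo of fibroblast exosomes.

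The mature sequences are shown because the seed separates the arms from each other and because reads of near-identical microRNAs could be counted under either name. Capitals mark the seed, and the sequences are those of RefSeq on GRCm38.p6.
miR-21a-5p: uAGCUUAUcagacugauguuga
miR-21a-3p: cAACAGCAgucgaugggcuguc
miR-21b: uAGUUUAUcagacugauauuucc
miR-21c: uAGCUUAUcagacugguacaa

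Both arms are encoded once, in the 92-base hairpin gene Mir21a on the minus strand at chr11:86584067-86584158 of GRCm38, the assembly also called mm10. The 5p arm lies at chr11:86584120-86584141 and the 3p arm at chr11:86584082-86584103. In GENCODE M21 the hairpin is inside the 3' untranslated part of the last exon of Vmp1-201 (chr11:86583865-86585310), on the same strand. Vmp1 encodes a membrane protein of autophagy, and its messenger RNA was not measured here. In the predicted minimum free energy fold of the hairpin (-46.2 kcal/mol), 19 of the 22 bases of the 5p arm paired with the 3p arm.

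The guide strand was among the most abundant microRNAs of both cultures. It had 179762 counts in the db/db library and 271579 counts in the db/+ library. These are 7399 CPM (counts per 1e6 mature microRNA counts, Poisson interval 7365 to 7433) in db/db and 10479 CPM (10440 to 10519) in db/+. It ranked 14 among all names in db/db and 10 in db/+, with 0.740% of counts in db/db and 1.05% in db/+. The let-7 family with miR-98 held 81.3% of counts in db/db and 81.4% in db/+, and of the remaining counts miR-21a-5p made up 3.96% in db/db and 5.64% in db/+.

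The passenger strand was present at a far lower level. It had 240 counts in db/db and 302 counts in db/+, or 9.88 CPM (8.67 to 11.2) in db/db and 11.7 CPM (10.4 to 13.04) in db/+. It ranked 204 in db/db and 193 in db/+. The 2 counting intervals overlapped, unlike those of the guide strand.

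The relatives miR-21b and miR-21c, encoded on chromosomes 3 and 8, had 0 counts in both libraries. With 3 counts as the upper limit behind a zero, their level could be up to 0.123 CPM in db/db and 0.116 CPM in db/+. Aligned from base 1, miR-21b was identical to miR-21a-5p at 18 of 22 bases and differed by C4U, G18A, G21U and A22C, with positions counted from the 5' end of miR-21a-5p. C4U lies in the seed. miR-21c was identical at 16 of 21 bases, kept the whole seed and differed first at base 16 (A16G). A sequence was matched by name for 1623 of the 1909 microRNAs, and among these miR-21c was the only one sharing the seed of miR-21a-5p, while 0 shared that of miR-21a-3p. The treatment of reads that match several names is not given in the sources used here, so these zeros describe the deposited counts.

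**Figure D1:**
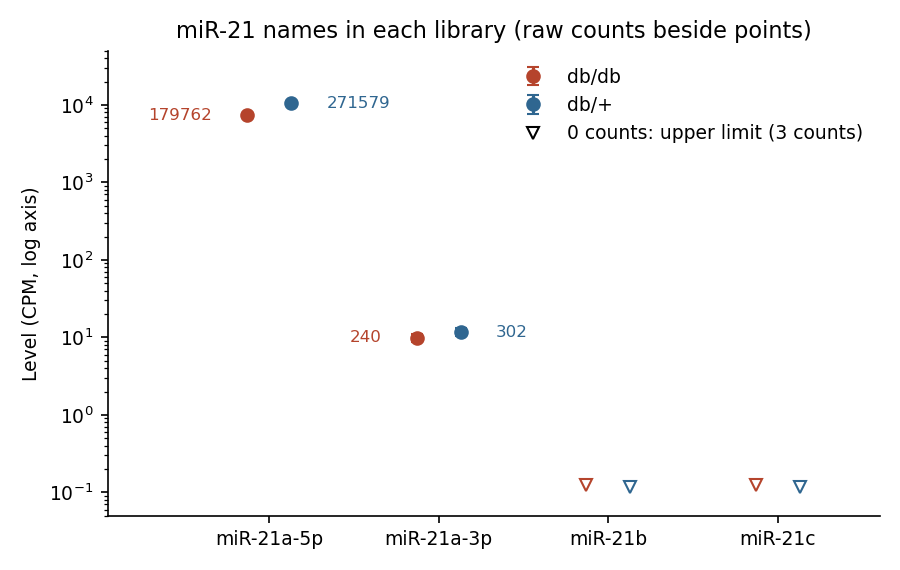
Level in CPM on a log axis of miR-21a-5p, miR-21a-3p, miR-21b and miR-21c in the db/db library and the db/+ library, with raw counts beside the points and 95% Poisson intervals that are mostly smaller than the points. The guide strand stood at 7399 CPM in db/db and 10479 CPM in db/+, and the open triangles give the limit that 0 counts allow.

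The db/db library held less of the guide strand. The ratio of db/db over db/+ was 0.706 for miR-21a-5p (95% exact conditional interval 0.702 to 0.710), a log2 ratio of -0.50. For miR-21a-3p the ratio was 0.848 (0.713 to 1.01), a log2 ratio of -0.24, and its interval included 1. Both point estimates were below 1, and only that of the guide strand differed from 1 by more than the counting error of reads.

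Neither arm reached a 2-fold difference. Of the 356 microRNAs that reached 50 counts in either library, 13.5% were at least 2-fold lower in db/db and 4.49% at least 2-fold higher. In all, 24.2% were at least 1.5-fold lower, which the guide strand did not reach. Counting error alone is a weak standard at this depth, as 44.1% of the 356 had an interval wholly below 1, as the guide strand did, and 31.7% one wholly above 1. The interval included 1 in 24.2%, as it did for the passenger strand. The median log2 ratio of the 356 was -0.14. Of them, 97 had a lower log2 ratio than the guide strand and 151 a lower one than the passenger strand. Both arms thus lay inside the bulk of the distribution.

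The position of the guide strand was different among abundant microRNAs, which spread less. Of the 34 names with at least 1000 CPM in a library, 18 had a ratio below 1, 1 was at least 2-fold lower and 0 were at least 2-fold higher, and the median ratio was 0.939. Only 3 of the 34 had a lower ratio than miR-21a-5p. These were miR-129-2-3p (0.451), miR-23a-3p (0.552) and miR-34c-5p (0.699), a p53-induced microRNA whose interval (0.689 to 0.709) overlapped that of miR-21a-5p. Of these, miR-129-2-3p (617 CPM in db/db, 1368 in db/+) and miR-23a-3p (614 and 1112) reached 1000 CPM through db/+ alone, where they were high. So did miR-24-3p (952 and 1138). The name at least 2-fold lower was miR-129-2-3p, so that count rests on a name kept through db/+. The 106 microRNAs with a mean level within 2-fold of that of miR-21a-3p had a median ratio of 0.858, and 51 of them had a lower ratio than miR-21a-3p.

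**Figure D2:**
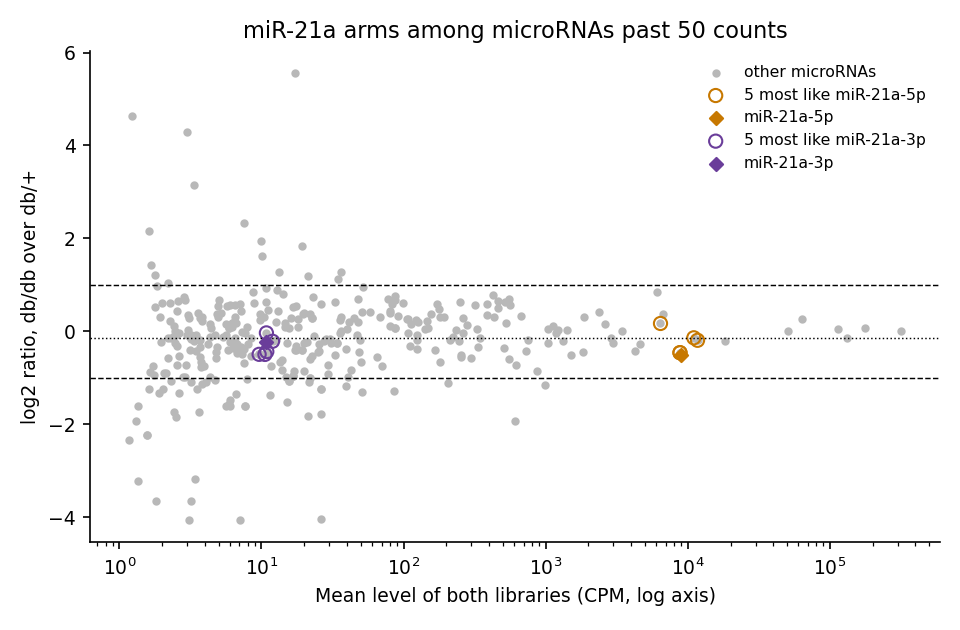
Log2 ratio of db/db over db/+ against the mean level of both libraries (CPM, log axis) for the 356 microRNAs past 50 counts. Dashed lines mark 2-fold, the dotted line the median of -0.14, diamonds the arms of miR-21a and open circles the 5 microRNAs most like each; the guide strand, at -0.50, lies below the median among the abundant microRNAs at the right.

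The scaling changed the size of the difference and not its side. Over 6 other scalings the ratio of miR-21a-5p ran between 0.702 and 0.755 and that of miR-21a-3p between 0.843 and 0.907. With the deposited normalized reads, 191376 in db/db and 255098 in db/+, the ratio of miR-21a-5p was 0.750. The same scalings moved the median log2 ratio of all 356 by between -0.01 and 0.10. Each scaling shifts all log2 ratios alike, nearly so for the deposited reads, so the distance to that median was fixed in advance. It was -0.36 for the guide strand and -0.10 for the passenger strand on the log2 scale.

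**Figure D3:**
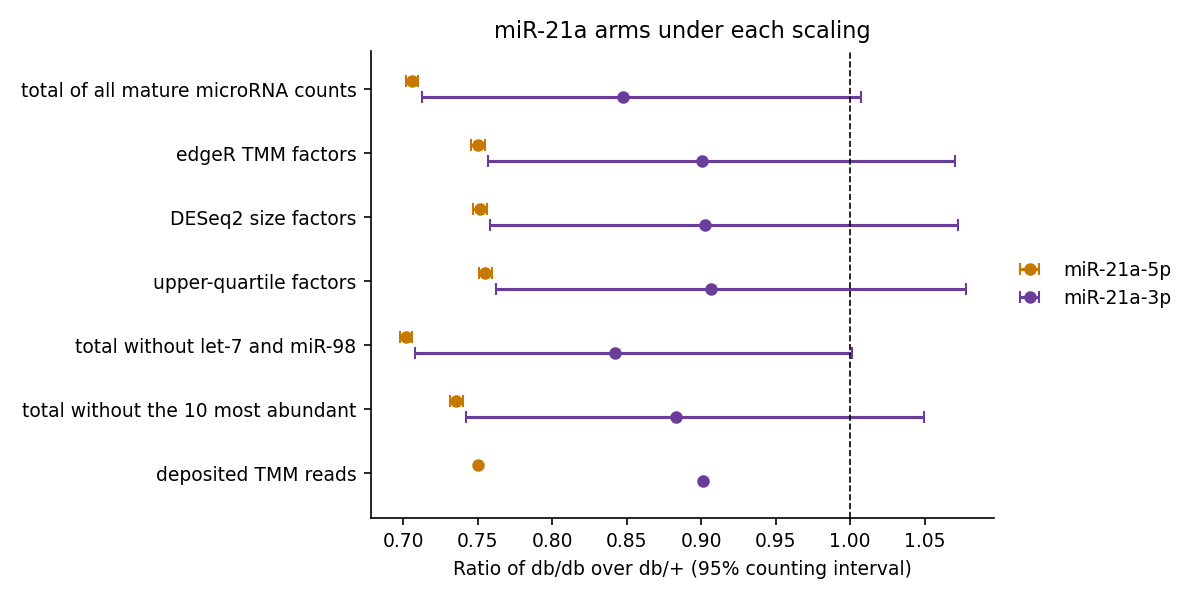
Ratio of db/db over db/+ for miR-21a-5p and miR-21a-3p under the total-count scaling and 6 others, with 95% counting intervals (none for the deposited TMM reads, which are not counts). The guide strand lies below 1 in every row, and the intervals of the passenger strand include 1 in each row that has one.

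The split between the arms does not depend on scaling. Of all miR-21a counts, the 5p arm held 99.867% (exact Clopper-Pearson interval 99.849 to 99.883) of 180002 in db/db and 99.889% (99.876 to 99.901) of 271881 in db/+. This is 749 guide reads for each passenger read in db/db and 899 in db/+. The share was lower in db/db by a difference of -0.022 percentage points (Newcombe interval -0.044 to -0.0016). Passenger reads per guide read were 1.20 times as frequent in db/db (exact conditional interval 1.01 to 1.43). An interval that excluded 0 was found for 39.2% of the 204 hairpins with at least 50 counts in each library, and 19.6% had a lower 5p share in db/db by that measure.

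Strand choice for miR-21a was steep but not extreme. The minor arm held 0.133% of miR-21a counts in db/db and 0.111% in db/+, against a median over the 204 hairpins of 2.34% in db/db and 3.06% in db/+. Among the other 203 hairpins, 55 had a smaller minor share in db/db and 40 in db/+. Because the guide was so abundant, the rare strand was still one of the better counted minor arms, with 32 minor arms above it in db/db and 31 in db/+. The guide begins with U and the passenger with C. In the 156 hairpins with both sequences matched, 46.8% of major arms and 24.4% of minor arms began with U.

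**Figure D4:**
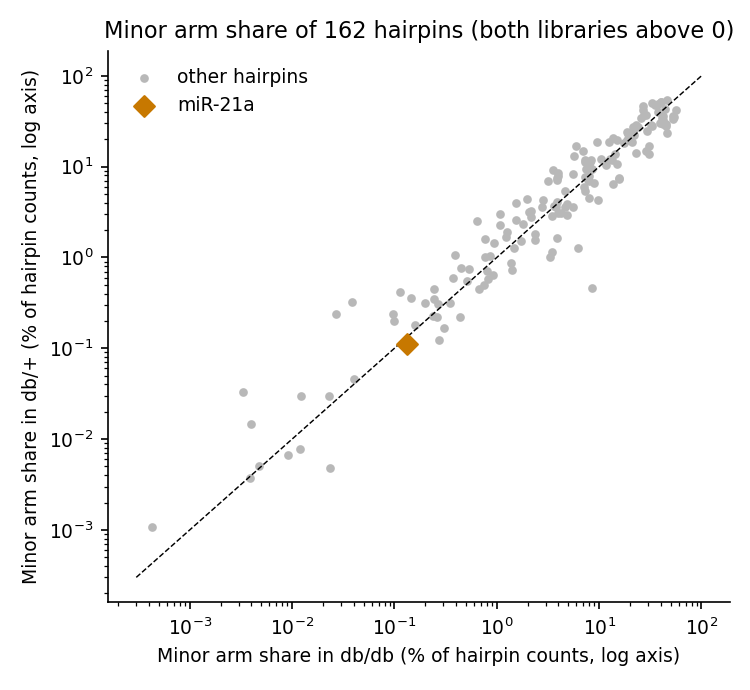
Minor arm share of each hairpin's counts in db/db (x axis) and in db/+ (y axis), both in percent on log axes, for the 162 of 204 hairpins with a minor arm above 0 in both libraries. The dashed line marks equal shares, and miR-21a lies close to it at 0.133% in db/db and 0.111% in db/+.

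The microRNA most like the guide strand in level was miR-199a-3p, a mesenchymal microRNA. With identical counts in both libraries, miR-199b-3p cannot be told apart from it here. miR-199a-3p had 180274 counts (7420 CPM) in db/db and 264469 counts (10205 CPM) in db/+, a ratio of 0.727 (0.723 to 0.731). Its Euclidean distance to miR-21a-5p over the log2 CPM of the 2 libraries was 0.038. The next were miR-320-3p at a distance of 0.52, let-7d-5p at 0.62 and let-7g-5p at 0.80, with ratios of 0.908, 0.875 and 1.12. In rank, the next above miR-21a-5p was miR-199b-3p in db/db and miR-320-3p in db/+, and the next below was let-7g-5p in db/db and miR-199a-3p in db/+. miR-21a-5p thus lay just below the miR-199 pair in db/db and just above it in db/+. The counting intervals of the 2 ratios did not overlap.

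For the passenger strand the 5 nearest were miR-425-5p, miR-145a-3p, miR-34b-3p, miR-33-5p and miR-297b-3p, at distances of 0.14 to 0.31. Their ratios ran between 0.708 and 0.977, and each interval overlapped that of miR-21a-3p. The last place was a tie, as miR-297a-3p and miR-297c-3p had the same counts as miR-297b-3p (194 in db/db, 292 in db/+). In rank miR-21a-3p stood next to miR-376c-3p and miR-3095-3p in db/db, and next to miR-6540-5p, with the same 302 counts, and miR-669p-5p in db/+. At this depth its neighbours differed from it little in that library, yet their ratios ran between 0.282 and 1.16. With points from only 2 libraries, likeness here means a like level and nothing more.

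Lists of microRNAs known from the same settings were set beside miR-21a. Of the 10 growth and injury microRNAs, which are linked to smooth muscle proliferation or vessel injury and do not include miR-21a, all 10 passed 50 counts. In 8 the ratio was below 1 and in 2 above it, under each scaling run, where 57% of all 356 were below 1. The list median log2 ratio was -0.29, beside -0.14 over all 356. The partners miR-221-3p and miR-222-3p, which repress the cell cycle inhibitor p27, had ratios of 0.906 (0.897 to 0.915) and 1.09 (1.07 to 1.10). For miR-31-5p the ratio was 0.911, for miR-24-3p 0.836 and for miR-214-3p 0.799. Lower ratios than that of miR-21a-5p were measured for 4 members, miR-130a-3p (0.677), miR-26a-5p (0.661), miR-155-5p (0.629) and miR-17-5p (0.442). Only miR-17-5p was at least 2-fold lower, and only miR-146a-5p at least 2-fold higher, with 308 counts in db/db and 65 counts in db/+ (5.05, 3.86 to 6.71). These are 1 of 10 in each direction, beside 13.5% lower and 4.49% higher over all 356.

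The contractile list showed no common direction. Of 6 members 5 passed the floor, and the median log2 ratio of -0.03 turned positive under 5 of the 6 other scalings. Its most abundant member, miR-143-3p, had 28364 counts in db/db and 31153 counts in db/+, and its ratio of 0.971 lay above 1 under 5 other scalings, as did that of miR-145a-3p (0.977). The ratio was 0.795 (0.771 to 0.819) for miR-145a-5p, 1.32 for miR-143-5p and 1.93 for miR-1a-3p, which reached 2-fold under 5 of the other scalings, while miR-133a-3p had 1 count in each library. None of the 5 had a ratio as low as that of miR-21a-5p.

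In the TGF-beta and matrix list, 8 of 11 members passed the floor, 7 with a ratio below 1 (57% of all 356) and 1 above. The median was -0.37, and -0.22 with no floor on counts, beside -0.14 over all 356. Under 5 other scalings the split was 6 and 2, as miR-192-5p (0.979) crossed 1. The collagen-repressing miR-29 guides had ratios of 0.860 for miR-29a-3p, 0.702 for miR-29b-3p and 0.597 for miR-29c-3p. The ratio of miR-29b-3p (interval 0.678 to 0.727) overlapped that of miR-21a-5p. The 2 of 8 members at least 2-fold lower (13.5% of all 356) were miR-217-5p, with 8 counts in db/db and 151 counts in db/+, and miR-377-3p, with 73 counts in db/db and 230 counts in db/+. Of these, miR-217-5p passed the floor through db/+ alone, where it was high, and it also enters the median of -0.37. The member above 1 was miR-433-3p at 1.41, and miR-199a-5p had 0.858.

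In the list of microRNAs induced with miR-21 by inflammatory signals, 6 of 7 members passed the floor, 5 with a ratio below 1 (57% of all 356) and 1 above, and the median was -1.73. Its 4 members at least 2-fold lower were miR-146b-5p (0.264), miR-132-3p (0.2996), miR-212-3p (0.297) and miR-9-5p (0.0584), against 13.5% of all 356. The best counted of them was miR-146b-5p, with 6139 counts in db/db and 24811 counts in db/+. The other 3 had between 19 and 41 counts in db/db and between 97 and 347 in db/+. Those 3 passed the floor through db/+ alone, where they were high. The median of -1.73 lies between miR-132-3p and miR-212-3p and so rests on members kept in this way. The list shares miR-146a-5p, the member above 1, and miR-155-5p with the growth and injury list. Compared with that of miR-146b-5p, the difference of miR-21a-5p was small.

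**Figure D5:**
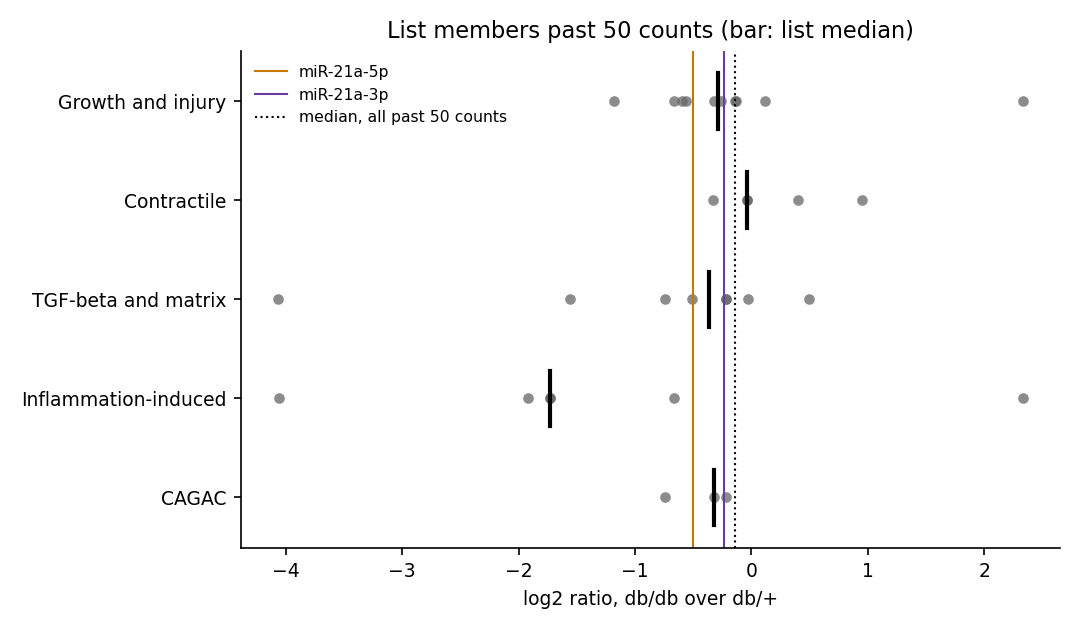
Log2 ratio of db/db over db/+ of each list member past 50 counts (points) with the list median (black bars), and lines for miR-21a-5p at -0.50, miR-21a-3p at -0.24 and the median of all 356 at -0.14. The contractile median turns positive under 5 of 6 other scalings, and the lists for inflammation and for TGF-beta and matrix reach far below miR-21a-5p. Their lowest members, miR-9-5p and miR-217-5p, passed 50 counts in db/+ alone. So did miR-132-3p and miR-212-3p, between which the inflammation median lies.

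The letters CAGAC, described as the SMAD-binding element in the stem of the miR-21 transcript, were searched on the RNA strand of the mature sequences. They occur in 26 of the 1623 matched names (1.60%), miR-21a-5p among them, and in 1.40% of the 286 matched names past 50 counts. Sought anywhere in the hairpin, they occur for 113 of the 1623 names (6.96%). The 4 names past 50 counts with the letters in the mature sequence are shown with the letters in capitals.
miR-21a-5p: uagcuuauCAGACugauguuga
miR-199a-5p: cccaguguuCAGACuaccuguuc
miR-214-3p: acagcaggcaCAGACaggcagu
miR-344d-3p: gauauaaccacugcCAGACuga

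In miR-21a-5p the letters fill bases 9 to 13, just after the seed, and in the predicted fold 4 of the 5 were paired. The other 3 had ratios of 0.858 (0.759 to 0.971) for miR-199a-5p, 0.799 (0.758 to 0.843) for miR-214-3p and 0.595 for miR-344d-3p, which had 72 counts in db/db and 129 counts in db/+. All 3 were below 1, as were 57% of the 356, and 0 reached 2-fold. At a floor of 10 counts the list held 5 names besides miR-21a-5p, with a median log2 ratio of -0.22. The names added were above 1, miR-219c-5p (39 counts in db/db, 21 in db/+, ratio 1.98) and miR-215-5p (25 and 22, ratio 1.21). With no floor the median was -0.64 over 11 names. With the letters sought in the hairpin it was -0.31 over 9 names. miR-199a-5p also stands in the TGF-beta and matrix list and miR-214-3p in the growth and injury list. A match of letters is a description of these sequences and not a binding site.

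MicroRNAs of other cell types were rare beside the guide strand of miR-21a. The smooth muscle markers miR-143-3p and miR-145a-5p summed to 1464 CPM in db/db and 1575 CPM in db/+. Endothelial miR-126a arms summed to 2.92 CPM in db/db and 0.270 CPM in db/+, and 6 epithelial members to 0.906 CPM in db/db and 0.270 CPM in db/+. Blood and macrophage members summed to 6.75 CPM in db/db and 6.48 CPM in db/+, nearly all from miR-486a-5p. Of the epithelial members, miR-141-3p and miR-205-5p had 0 counts in db/db, and miR-200b-3p and miR-429-3p had 0 counts in db/+. Of the 7 blood and macrophage members, miR-144-3p, miR-142a-3p and miR-223-3p had 0 counts in both libraries. The endothelial and epithelial sums were higher in db/db but rest on few counts. These were 58 in db/db and 2 in db/+ for miR-126a-5p, and 12 and 3 for miR-200a-3p. The blood and macrophage sums differed little. For miR-486a-5p, with 147 counts in db/db and 150 in db/+, the ratio was 1.05 and its interval (0.827 to 1.32) included 1. The ratio of miR-451a (14 and 17 counts) was below 1. The sum of the smooth muscle pair and the level of miR-21a-5p were lower in db/db. Of the pair, miR-143-3p lay above 1 under 5 of 6 other scalings, and in the contractile list miR-143-5p and miR-1a-3p were higher in db/db. Their part in the difference of miR-21a-5p was not tested. In such a bulk culture, fewer cells of a type and less RNA per cell cannot be told apart.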

How the data were processed

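Small RNA was sequenced in 1 db/db and 1 db/+ library. Per the submitters' processing notes, the authors used Novoalign, edgeR and mm10. The authors' tables hold, per the file headers, a raw count and a TMM-normalized value for each mature microRNA. They are whole numbers near the counts times 1.06 in db/db and 0.939 in db/+ (off that product by 1 read or more for 28 of 833 detected names in db/db, by up to 4 reads, and for 31 of 881 in db/+, by up to 17), so the deposited column was treated as a score and used in 1 alternative. Totals were 24295112 counts in db/db and 25915732 in db/+.

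Counts were scaled to library totals. Ratios of db/db over db/+ carry exact conditional 95% intervals (scipy 1.17.1). Without replicates, edgeR's quasi-likelihood test had no residual degrees of freedom, so the text gives no p-value. Log2 ratios had 0.5 counts added. Other scalings used edgeR 4.0.16 and DESeq2 1.42.0, and the hairpin was folded with ViennaRNA 2.7.2. Sequences came from RefSeq (GRCm38.p6). Only the ratio and its interval were tested on simulated data. These were Poisson counts without PCR copying or variation between cultures.

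Members, lists and alternatives were chosen with earlier results of these data known, and the limits of 1000 CPM and of 2-fold in level after the files were opened. Named microRNAs were both arms, miR-21b, miR-21c, seed relatives, rank neighbours, the 5 nearest in level and the list and marker members; those with lower ratios among the abundant were named after their values were seen.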

Additional observations from a re-analysis of the deposited data

How the results depend on the processing

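No paired analysis was possible because there is only 1 library per group, which also bars any fit with a library left out. The ratio of miR-21a-5p moved beyond its counting interval under each of 6 scalings, to 0.7502 with edgeR TMM factors, 0.7502 with the deposited TMM reads, 0.752 with DESeq2 size factors, 0.755 with upper-quartile factors, 0.735 without the 10 most abundant and 0.702 without let-7 and miR-98, and stayed at 0.706 with 0.5 or 5 counts added. The ratio of miR-21a-3p stayed inside its wide interval in all 8 alternatives. The 2 alternatives for the difference in 5p share could hardly change it. The deposited TMM reads scale both arms nearly alike, and the added miR-21b and miR-21c had 0 counts. The contractile median became 0.063 with upper-quartile factors, 0.056 with DESeq2, 0.054 with edgeR TMM, 0.053 with the deposited TMM reads, 0.025 without the 10 most abundant and 0.030 with no floor. Counts at 2-fold followed the limits by construction, with 46 higher and 91 lower at a floor of 10 counts, 171 higher and 259 lower without a floor, and 48 higher and 86 lower at 1.5-fold. In total 78 of 96 alternative values neither moved so far nor changed sign. That count includes the 2 for the 5p share and others that could hardly change. Among these are counts added to the guide strand and floors that left the members of a list the same. The list medians had no counting interval to move beyond. A scaling shifts all ratios by 1 factor, and which scaling is right was not tested. Depth limits the passenger strand, with 240 counts in db/db and 302 counts in db/+.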
